A study of Bos taurus with 31 samples.

Results

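Heme is the iron-containing porphyrin that the liver builds into cytochromes and other oxidative enzymes. Its synthesis starts and ends in the mitochondrion, with intermediate steps in the cytosol, and ALAS1 sets its rate in the liver and is repressed by heme itself. Breakdown by heme oxygenase yields biliverdin, which biliverdin reductases turn into bilirubin for excretion with bile. The 9 genes described here are enzymes of this route, namely 7 of synthesis (ALAS1, ALAD, UROS, UROD, CPOX, PPOX and FECH) and 2 biliverdin reductases (BLVRA and BLVRB). They were taken by gene symbol from the 24616 genes of the raw count table, and each was represented by 1 Ensembl gene. The choice was made with earlier results of these data known. All 9 had at least 20 reads summed over the cows and were among the 15916 genes tested.

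Liver was sampled by puncture biopsy from 31 lactating German Holstein cows in week 16 of a feeding trial, and each cow gave 1 RNA-seq library. The rations were either control feed (CON) or feed with glyphosate residues (GLY), combined with a high (HC, 60% of dry matter) or a low (LC, 30% of dry matter) concentrate feed proportion (CFP), and the glyphosate came with crops that had been treated with a glyphosate-based herbicide. This gave 8 cows in CONHC, 8 in CONLC, 8 in GLYHC and 7 in GLYLC. The design asks whether glyphosate residues, the CFP or their combination altered hepatic gene expression, and the age of the cows is not given in the labels. Group values below are normalized read counts (read counts scaled to a common library size), given as mean ± SD over cows, and they are not comparable between genes because they are not scaled by gene length. Called genes are those with an unadjusted p-value under 0.05 and a Benjamini-Hochberg adjusted p-value under 0.1 over all 15916 genes in edgeR's quasi-likelihood test.

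The libraries held from 11675775 to 36675542 reads counted in genes, with medians of 15639368 in CONHC, 22532846 in CONLC, 21741496 in GLYHC and 20722019 in GLYLC. All 10 hepatocyte markers were measured in these biopsies. Markers of red cell precursors, which also make heme, were near 0. Of 13 erythroid markers, 8 had under 20 reads over all cows or no row with their symbol, the erythroid ALAS2 stayed at or below 0.294 CPM (reads scaled to the library's total) and the summed erythroid markers ranged from 0.299 to 14.2 CPM. The GLYLC cow 912 stood apart from the other cows. It held 206 CPM of FABP2, 46.8 CPM of BCO1, 25.1 CPM of MUC13 and 11.5 CPM of OLFM4. These are intestinal genes with a median of 0 over the 31 cows. Of the other intestinal markers, VIL1 and LGALS4 were also highest in this cow, but CDH17 and APOA4 were not. Its albumin (ALB) level of 42900 CPM was the lowest, against a median of 106927 CPM. TTR, TF, AHSG, CPS1 and SERPINA1 were also lowest in this cow. The hepatocyte markers APOA1 (714 CPM) and FGB (42252 CPM) were instead the highest, and APOB and HNF4A lay between. This cow also had the lowest level of ALAS1, ALAD, UROS, UROD and FECH and the highest level of BLVRA among the 31 cows. Several differences below were therefore also computed without it.

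**Figure D1:**
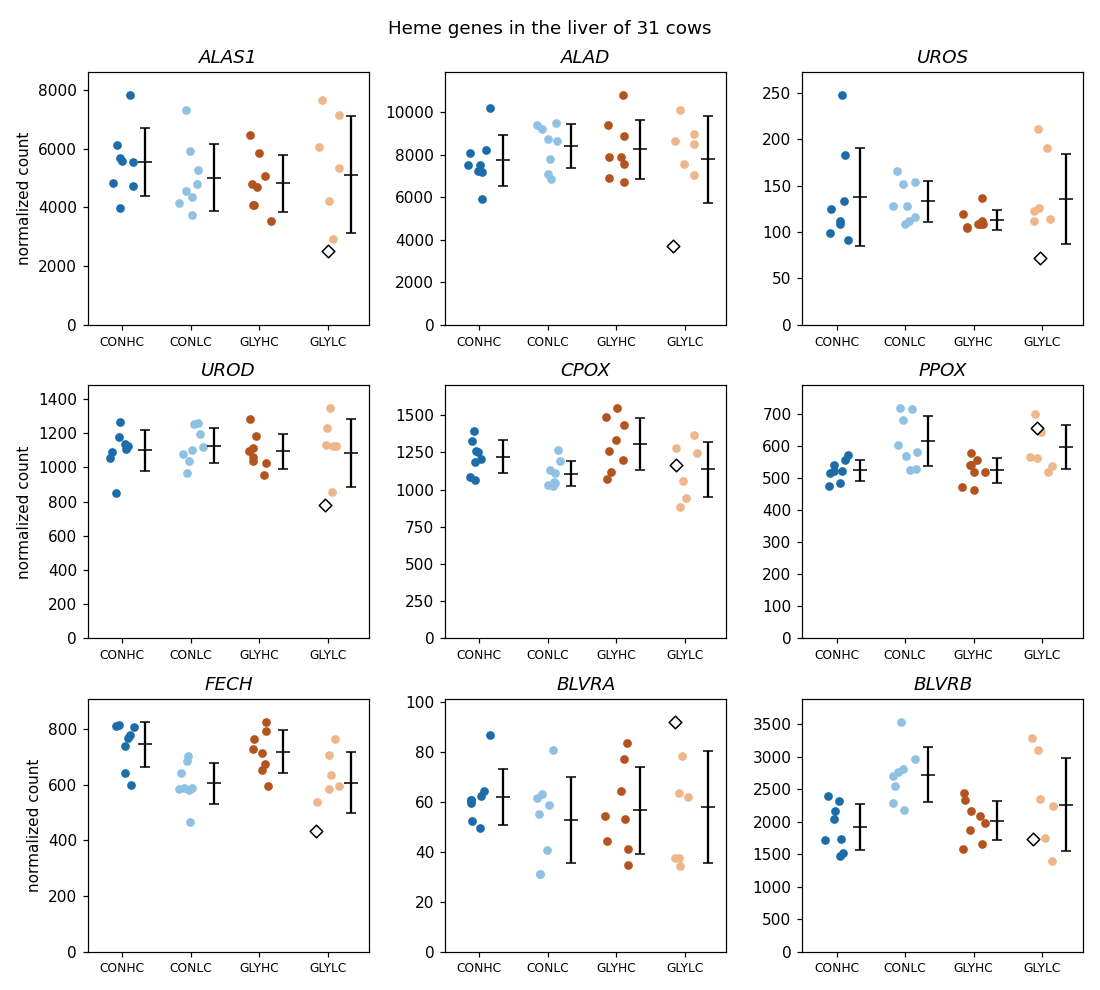
Normalized read count (vertical axis, linear from 0) of the 9 heme genes in each cow (points) of the 4 feeding groups (horizontal axis), with mean ± SD as bars and GLYLC cow 912 as an open diamond. FECH lies higher and PPOX lower in both HC groups, and cow 912 has the lowest value for 5 of the genes.

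FECH and PPOX, which catalyse the closing steps of heme synthesis in the mitochondrion, differed between HC and LC cows in opposite directions. Across all cows, with treatment as a covariate, FECH was 20.7% higher and PPOX 13.7% lower with the high CFP. These were the 2 heme genes called in this comparison, in which 1.45% of all genes tested were called. Before adjustment, 4 of the 9 heme genes had an unadjusted p-value under 0.05, against 13.7% of all genes. The median log2 fold change was -0.01 over the 9 genes and -0.01 over all genes, and 4 of the 9 values were positive and 5 negative.

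FECH encodes ferrochelatase, which inserts iron into protoporphyrin. Its lowest, median and highest normalized counts were 598, 772 and 813 in CONHC and 467, 589 and 702 in CONLC. In the GLY groups they were 596, 721 and 826 in GLYHC and 434, 594 and 765 in GLYLC. The group ranges overlapped, but all 16 HC cows lay above the median of the 15 LC cows, and 6 of 8 CONHC cows lay above the highest CONLC cow. The group means followed the order CONHC (745 ± 81.5, n = 8), GLYHC (719 ± 76.1, n = 8), GLYLC (608 ± 109, n = 7) and CONLC (605 ± 73.4, n = 8), in which CONHC and GLYHC, and likewise GLYLC and CONLC, differed by less than their SDs. The log2 fold change of HC versus LC was 0.27 ± 0.07 (SE), with an adjusted p-value of 0.0682 in edgeR's quasi-likelihood test. Without cow 912 it was 0.24 ± 0.06, with an adjusted p-value of 0.0964. FECH was called in 29 of the 31 fits that each left out 1 cow, and the call was lost without GLYHC cow 32 (adjusted p-value 0.111) and without GLYHC cow 152 (adjusted p-value 0.101).

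PPOX encodes protoporphyrinogen oxidase, which makes the protoporphyrin that ferrochelatase uses. Its lowest, median and highest normalized counts were 474, 523 and 573 in CONHC and 526, 594 and 718 in CONLC. They were 464, 530 and 579 in GLYHC and 520, 565 and 699 in GLYLC. No HC cow (0 of 16) lay above the median of the LC cows, 5 of 8 CONHC cows lay below the lowest CONLC cow and 4 of 8 GLYHC cows lay below the lowest GLYLC cow. The spread was narrow in HC, with means of 524 ± 33.6 (n = 8) in CONHC and 524 ± 39.3 (n = 8) in GLYHC, and the LC means were 616 ± 79.0 (n = 8) in CONLC and 598 ± 68.1 (n = 7) in GLYLC. The log2 fold change of HC versus LC was -0.21 ± 0.05 (SE, adjusted p-value 0.0637 in edgeR's test), and without cow 912 it was -0.20 ± 0.05 (adjusted p-value 0.0964). The call was lost without CONLC cow 145 (0.102), CONLC cow 941 (0.104) or GLYHC cow 152 (0.104), and when the total number of reads per cow was a covariate (adjusted p-value 0.132, log2 fold change -0.19). With that covariate FECH was still called (0.29 ± 0.07, adjusted p-value 0.0896), and 0.578% of all genes were called.

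The directions of FECH and PPOX were the same under both treatments, although neither gene was called within CON or within GLY alone. In CONHC versus CONLC, edgeR called 0 of the 9 heme genes and 0.0% of all genes. DESeq2 on all cows called 0 of the 9 and 0.17% of all genes. In edgeR, 3 heme genes (FECH, PPOX and BLVRB) had an unadjusted p-value under 0.05, against 5.96% of all genes. FECH differed by 0.30 ± 0.10 and PPOX by -0.23 ± 0.07 on the log2 scale there, with adjusted p-values of 0.581 and 0.559. In GLYHC versus GLYLC, 0 of the 9 were called by either tool, against 0.201% of all genes by edgeR and 0.898% by DESeq2. The 3 heme genes FECH, PPOX and CPOX had an unadjusted p-value under 0.05 in edgeR, against 12.5% of all genes. FECH differed by 0.24 ± 0.10 and PPOX by -0.19 ± 0.08, with adjusted p-values of 0.303 and 0.294. Without cow 912, the FECH difference in GLY cows was 0.17 ± 0.10 with an unadjusted edgeR p-value of 0.0806.

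**Figure D2:**
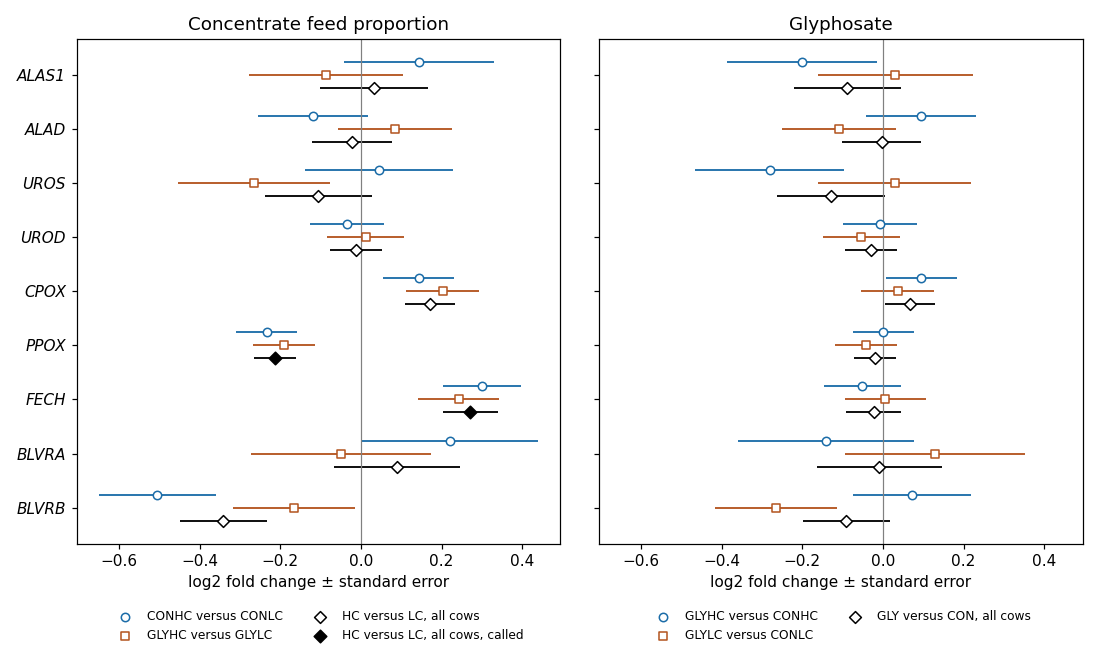
Log2 fold change (horizontal axis) with its standard error for the 9 heme genes (vertical axis), for the CFP contrasts (left, HC relative to LC) and the glyphosate contrasts (right, GLY relative to CON), with filled symbols for called genes. FECH at 0.27 and PPOX at -0.21 are the called values, and no glyphosate value is called.

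Both genes were counted in the same library, so their ratio does not depend on how libraries are scaled. This ratio was computed after the values of both genes had been seen and is given without a test. The 2 genes were those called in opposite directions in these same cows. A difference in the ratio between HC and LC was therefore built in and adds nothing to the 2 calls. FECH had 1.43 ± 0.191 reads per PPOX read in CONHC (range 1.15 to 1.71) and 0.994 ± 0.151 in CONLC (0.686 to 1.21). It had 1.38 ± 0.183 in GLYHC (1.10 to 1.62) and 1.02 ± 0.171 in GLYLC (0.660 to 1.14). The ratio exceeded the highest LC cow (1.21) in 12 of 16 HC cows, and it was below the lowest HC cow (1.10) in 11 of 15 LC cows. The lowest ratio, 0.660, was that of cow 912.

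**Figure D3:**
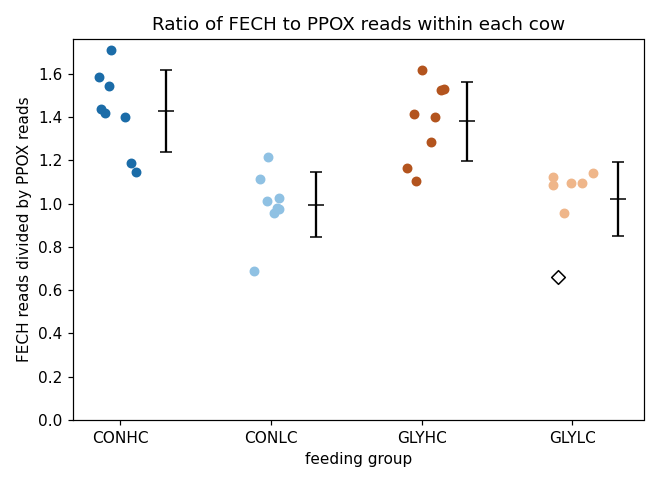
FECH reads divided by PPOX reads within each cow (vertical axis, no unit) in the 4 feeding groups (horizontal axis), with points for cows, bars for mean ± SD and GLYLC cow 912 as an open diamond. The means are 1.43 and 1.38 in the HC groups and 0.994 and 1.02 in the LC groups.

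CPOX, the enzyme just before PPOX, oxidises coproporphyrinogen in the mitochondrial intermembrane space. Its lowest, median and highest normalized counts were 1066, 1227 and 1396 in CONHC, 1026, 1084 and 1263 in CONLC, 1072, 1295 and 1546 in GLYHC and 881, 1167 and 1369 in GLYLC. The groups overlapped, and 13 of 16 HC cows lay above the LC median. CPOX did not pass the adjusted threshold, with a log2 fold change of HC versus LC of 0.17 ± 0.06, an unadjusted p-value of 0.00985 and an adjusted p-value of 0.199 in edgeR's test. It differed by 0.14 ± 0.09 in CON and by 0.20 ± 0.09 in GLY cows. The 3 mitochondrial enzymes at the end of the route thus had values of opposite sign, positive for CPOX and FECH and negative for PPOX.

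BLVRB, which reduces biliverdin and also serves as a flavin reductase, had the largest difference of the 9 genes with the CFP without passing the adjusted threshold. Its lowest, median and highest normalized counts were 1472, 1888 and 2403 in CONHC and 2187, 2733 and 3539 in CONLC, and 6 of 8 CONHC cows lay below the lowest CONLC cow. In the GLY groups they were 1582, 2043 and 2450 in GLYHC and 1391, 2244 and 3294 in GLYLC, so that the range of GLYLC enclosed that of GLYHC. Group means followed the order CONLC (2725 ± 422, n = 8), GLYLC (2267 ± 718, n = 7), GLYHC (2021 ± 304, n = 8) and CONHC (1922 ± 359, n = 8). The log2 fold change of HC versus LC over all cows was -0.34 ± 0.11 (adjusted p-value 0.134 in edgeR's test), while DESeq2 on all cows, which called 2.73% of all genes in this comparison, called it (adjusted p-value 0.0794). Of the 31 edgeR fits that each left out 1 cow, 1 called BLVRB (-0.39, adjusted p-value 0.0665). That fit left out GLYLC cow 102, which had the lowest value of all cows. In the other fits the adjusted p-value in edgeR reached up to 0.204, and it was 0.119 without cow 912. In fits on only the 2 CON groups, DESeq2 called BLVRB (adjusted p-value 0.0159) and 0.504% of all genes. There edgeR called 0 of the 9 heme genes and 0.0% of all genes. Within CON the difference was -0.50 ± 0.15 (adjusted p-value 0.452 in edgeR on all cows). Within GLY it was -0.17 ± 0.15, and from -0.26 without cow 102 to -0.05 without GLYLC cow 209, and the test of the difference between both treatments gave an interaction of 0.34 ± 0.21 on the log2 scale, with an unadjusted p-value of 0.118 and an adjusted p-value of 0.999 in edgeR.

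BLVRA, the other biliverdin reductase, was counted with 19 to 121 reads per cow, so its values carry the largest counting error of the 9 genes. Its means were 61.9 ± 11.2 in CONHC, 52.7 ± 17.2 in CONLC, 56.5 ± 17.3 in GLYHC and 57.9 ± 22.5 in GLYLC, closer to each other than the SDs. The HC versus LC log2 fold change was 0.09 ± 0.16, and an interval of 2 SE ran from -0.22 to 0.40. Without cow 912 it was 0.16 ± 0.15.

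For the early enzymes of the route, the HC versus LC differences over both treatments were smaller than their SE, and none was called. ALAS1, the rate-setting aminolevulinate synthase, had means of 5542 ± 1147 in CONHC, 5014 ± 1146 in CONLC, 4822 ± 974 in GLYHC and 5120 ± 1996 in GLYLC, and single cows ranged from 2503 to 7835. Its HC versus LC log2 fold change was 0.03 ± 0.13, with an interval of 2 SE from -0.23 to 0.30, and it was -0.02 ± 0.12 without cow 912. ALAD, which joins aminolevulinate into porphobilinogen, had means of 7739 ± 1214, 8407 ± 1040, 8265 ± 1378 and 7799 ± 2043 in the same order of groups. Its log2 fold change was -0.02 ± 0.10, from -0.22 to 0.18 at 2 SE, and -0.08 ± 0.07 without cow 912. These intervals still hold differences of the size seen for PPOX.

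UROS closes the porphyrin ring and UROD removes carboxyl groups from it. UROS had means of 138 ± 52.7 in CONHC, 133 ± 21.8 in CONLC, 113 ± 10.8 in GLYHC and 136 ± 48.3 in GLYLC, and its coefficient of variation ranged from 9.54% in GLYHC to 38.3% in CONHC. Its HC versus LC log2 fold change was -0.11 ± 0.13, and it ran from -0.20 without CONHC cow 41 to -0.03 without GLYLC cow 209. In GLY cows it was -0.26 ± 0.19, and it ran from -0.38 without cow 912 (unadjusted p-value 0.0446 and adjusted p-value 0.590 in edgeR's test) to -0.12 without cow 209. The exact permutation test for GLY cows gave a difference in mean log2 CPM of -0.19 (two-sided p-value 0.307). UROD had means of 1100 ± 120 in CONHC, 1127 ± 103 in CONLC, 1095 ± 102 in GLYHC and 1086 ± 198 in GLYLC. Its log2 fold change of -0.01 ± 0.07 had an interval of 2 SE from -0.14 to 0.12, and it was -0.04 ± 0.06 without cow 912.

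Glyphosate residues went with no called difference in any of the 9 genes. Across both CFP levels, edgeR and DESeq2 on all cows each called 0 of the 9, and 0 had an unadjusted p-value under 0.05 in either test. Of all genes, edgeR called 0.0%, with 3.92% at an unadjusted p-value under 0.05, and DESeq2 called 0.00628%. UROS differed by -0.13 ± 0.13 on the log2 scale, which became -0.08 without cow 912, -0.04 without CONHC cow 41 and -0.20 without GLYLC cow 209. The smallest unadjusted p-value was 0.292, for CPOX (0.07 ± 0.06). FECH differed by -0.02 ± 0.07 and PPOX by -0.02 ± 0.05 between GLY and CON cows, with intervals of 2 SE from -0.16 to 0.11 and from -0.13 to 0.09. For ALAS1 the difference was -0.09 ± 0.13, from -0.35 to 0.18 at 2 SE, and it was -0.03 ± 0.12 without cow 912 and -0.15 without GLYLC cow 209.

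At the high CFP, GLYHC versus CONHC also had 0 heme genes called by either tool and 0 with an unadjusted p-value under 0.05. Of all genes, each tool called 0.0%, and 2.92% had an unadjusted p-value under 0.05 in edgeR. The 2 largest values were -0.28 ± 0.19 for UROS (unadjusted p-value 0.140 in edgeR) and -0.20 ± 0.19 for ALAS1, which became -0.11 for UROS without CONHC cow 41 and -0.11 for ALAS1 without CONHC cow 170. At the low CFP, GLYLC versus CONLC had 0 heme genes called by either tool and 0 with an unadjusted p-value under 0.05. The shares of all genes were 0.0628% and 5.65% in edgeR, and DESeq2 on all cows called 0.0251%. BLVRB had the smallest p-value there, at -0.27 ± 0.15 (unadjusted p-value 0.0890), with -0.20 ± 0.15 without cow 912 and -0.18 without GLYLC cow 102. The interaction of glyphosate with the CFP was called for 0 of the 9 genes by edgeR and DESeq2, with 0 at an unadjusted p-value under 0.05. Of all genes, edgeR called 0.0%, with 4.21% at an unadjusted p-value under 0.05, and DESeq2 on all cows called 0.00628%.

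Some markers of other cells were called for HC versus LC, in which 1.45% of all genes tested were called. Of 9 markers of Kupffer cells and macrophages, which take up old red cells and break down their heme, 2 were called higher in HC cows, CD68 (0.61 ± 0.17) and CD5L (0.41 ± 0.11). Without cow 912 both had differences of similar size, 0.55 for CD68 and 0.37 for CD5L, but were not called (adjusted p-values 0.137 and 0.116 in edgeR's test). The summed level of the 9 markers ranged from 558 to 1548 CPM in CONHC, 688 to 1301 in CONLC, 659 to 1648 in GLYHC and 675 to 1312 in GLYLC. Its medians were 1091, 880, 1090 and 843 CPM in the same order, higher in HC under both treatments. None of 7 endothelial, 10 hepatocyte, 5 measured erythroid and 5 measured bile duct markers was called, and 4 of 8 intestinal markers were called lower in HC (FABP2, BCO1, MUC13 and OLFM4), those carried by cow 912. The part of these cells in the FECH and PPOX differences was not tested, and in bulk tissue fewer cells of a type and less RNA per cell cannot be told apart.

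The 9 genes did not vary as a single unit from cow to cow. Among their 36 pairs, Pearson's r of log2 CPM over the 31 cows ranged from -0.58 to 0.58 with a median of 0.10, and 5 pairs had a Benjamini-Hochberg adjusted permutation p-value under 0.05 for r. These values share the library and its scaling, and cows of all groups are pooled. UROD rose with BLVRB (r = 0.58, permutation p-value 0.0005, adjusted 0.0112; Spearman's rho = 0.57, permutation p-value 0.00121, adjusted 0.0145). Without the 2 cows farthest from the median of UROD, r was 0.52, and it was 0.65 after centring each group. CPOX ran against BLVRB (r = -0.58, permutation p-value 0.00062, adjusted 0.0112; rho = -0.64, permutation p-value 0.00016, adjusted 0.00576), with r of -0.67 without the 2 cows farthest in CPOX and of -0.50 after centring.

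PPOX rose with BLVRB (r = 0.53, permutation p-value 0.00203, adjusted 0.0205; rho = 0.56, permutation p-value 0.00113, adjusted 0.0145), with r of 0.48 without the 2 farthest cows in PPOX and 0.33 after centring each group. ALAS1 with ALAD (r = 0.53, permutation p-value 0.00228, adjusted 0.0205; rho = 0.40, permutation p-value 0.0268, adjusted 0.138) and ALAD with UROD (r = 0.54, permutation p-value 0.00289, adjusted 0.0208; rho = 0.27, permutation p-value 0.141, adjusted 0.298) rested on few cows. Without the 2 farthest cows r fell to 0.26 and 0.36, and without cow 912 alone it was 0.31 and 0.29, with adjusted permutation p-values of 0.318 and 0.342. Without cow 912, UROD with PPOX passed instead, with r of 0.58 (adjusted permutation p-value 0.00954) against 0.35 over all cows (permutation p-value 0.05, adjusted 0.15; rho = 0.38, permutation p-value 0.0359, adjusted 0.162) and 0.43 after centring. FECH and PPOX, which differed in opposite directions between HC and LC, had r of -0.31 over all cows (rho = -0.33, permutation p-values 0.087 and 0.0749, adjusted 0.209 and 0.193) and of 0.10 after centring each group.

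**Figure D4:**
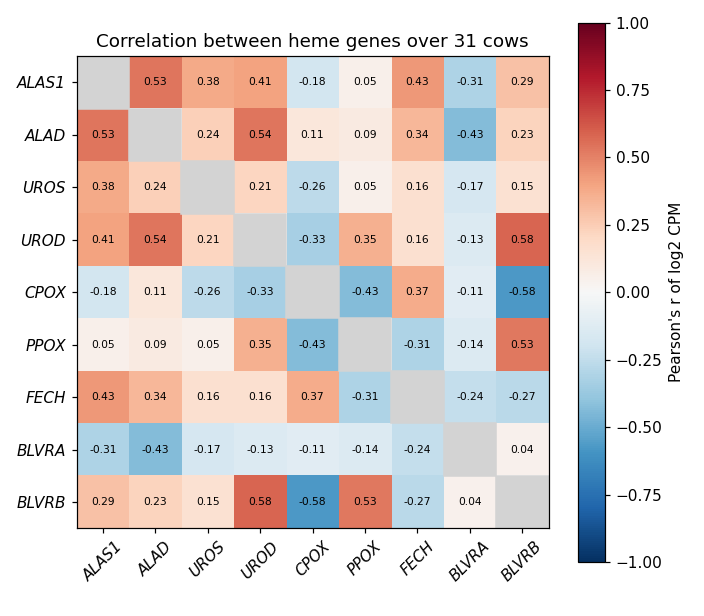
Pearson's r of log2 CPM (colour and number, from -1 to 1) for each pair of the 9 heme genes over 31 cows. BLVRB has its highest value with UROD (0.58) and its lowest with CPOX (-0.58).

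Among 11145 genes with a symbol and a mean of at least 1 CPM, those whose log2 CPM followed each heme gene most closely over the 31 cows were recorded as a description. For ALAS1 they were HAUS4 (r = 0.72), PHYHD1 (0.71) and GPC3 (0.71). The closest gene was ACAA1, a peroxisomal thiolase, for ALAD (0.86), SEL1L3 for UROS (0.70), TCTA for UROD (0.84), TRIM25 for CPOX (0.78) and NMRAL1 for PPOX (0.76). For FECH it was AADAC, a lipase of the endoplasmic reticulum (0.81), for BLVRA it was NCK2 (0.63), and for BLVRB it was AKR7A2, an aldo-keto reductase (0.89).

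Other genes of the route were covered by 5 lists with 51 genes, of which 50 were tested and FLVCR2 was not. No gene of these lists was called by edgeR in any contrast, and the number with an unadjusted p-value under 0.05 was 3 in CONHC versus CONLC, 5 in GLYHC versus GLYLC, 0 in GLYHC versus CONHC, 5 in GLYLC versus CONLC, 3 for the interaction, 7 for HC versus LC and 1 for GLY versus CON. Over all genes the shares at that p-value were 5.96%, 12.5%, 2.92%, 5.65%, 4.21%, 13.7% and 3.92% in the same order. DESeq2 on all cows called 1, ABCB6 in CONHC versus CONLC, where it called 0.17% of all genes. DESeq2 on only these 2 groups called ABCB6 and HPX there, and 0.504% of all genes. The median log2 fold change of the 50 genes for HC versus LC was -0.0013, against -0.01 over all genes. Of the enzymes of breakdown, HMOX1, the inducible heme oxygenase, had means of 1623 ± 604 in CONHC, 1373 ± 350 in CONLC, 1359 ± 314 in GLYHC and 1139 ± 224 in GLYLC. It differed by 0.25 ± 0.13 for HC versus LC (adjusted p-value 0.410) and by -0.26 ± 0.13 for GLY versus CON (adjusted p-value 0.9999; edgeR). HMOX2, the constitutive form, differed by 0.0049 ± 0.076 and -0.053 ± 0.076, and UGT1A1, which conjugates bilirubin, by -0.04 ± 0.09 and -0.13 ± 0.09, or -0.10 ± 0.06 and -0.07 ± 0.06 without cow 912.

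Among the transporters, ABCB6, a porphyrin transporter, had the smallest p-value of the lists with the CFP in CON cows. It had 629 ± 116 normalized counts in CONHC, 862 ± 120 in CONLC, 684 ± 82.1 in GLYHC and 657 ± 128 in GLYLC, so CONLC was the highest group. The log2 fold change was -0.45 ± 0.11 for CONHC versus CONLC (adjusted p-value 0.263 in edgeR) and -0.39 ± 0.12 for GLYLC versus CONLC (adjusted p-value 0.367), which share the CONLC cows. In GLYHC versus GLYLC it was 0.06 ± 0.12, and the interaction was 0.51 ± 0.16, with an adjusted p-value of 0.999. ABCB10, a mitochondrial transporter that works with the iron importer mitoferrin, differed by 0.38 ± 0.17 in GLYHC versus GLYLC (adjusted p-value 0.339 in edgeR), and by 0.30 ± 0.16 without cow 912.

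HPX, the plasma protein that binds free heme, differed by 0.40 ± 0.14 for HC versus LC (adjusted p-value 0.169 in edgeR) and by 0.62 ± 0.18 within CON (adjusted p-value 0.465). HP, haptoglobin, which binds free hemoglobin and rises in the acute phase, spanned a wide range, with medians of 5775 in CONHC, 1143 in CONLC, 9846 in GLYHC and 7060 in GLYLC and a highest cow at 405637 in GLYLC. Its GLYLC versus CONLC difference was 4.24 ± 1.35 (adjusted p-value 0.453), and 1.47 ± 1.11 without cow 912. For GLY versus CON the HP difference was 2.46 ± 1.04 (adjusted p-value 0.9999), and 1.09 ± 0.75 without that cow.

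Of the enzymes that carry or reduce heme, TDO2, the hepatic tryptophan dioxygenase, differed by 0.27 ± 0.09 for HC versus LC (adjusted p-value 0.169 in edgeR), with 0.27 in CON as well as in GLY cows. Without cow 912 the TDO2 difference was 0.23 ± 0.09 for HC versus LC and 0.19 ± 0.13 in GLY cows. CYB5R3, a cytochrome b5 reductase, differed by 0.34 ± 0.12 in GLYHC versus GLYLC (adjusted p-value 0.256), and by 0.23 ± 0.11 without cow 912. In the glyphosate contrast at the high CFP, 0 of the 50 listed genes had an unadjusted p-value under 0.05. The 2 smallest, 0.0549 for NR1D2 and 0.0551 for NR1D1 in edgeR, were those of regulators of ALAS1. There the heme-binding nuclear receptors NR1D1 and NR1D2 differed by 0.68 ± 0.34 and 0.27 ± 0.14 in GLYHC versus CONHC, each with an adjusted p-value of 1. The xenobiotic receptor NR1I2 differed by 0.17 ± 0.08 for GLY versus CON (unadjusted p-value 0.0530 and adjusted p-value 0.9999 in edgeR). Without cow 912 it was 0.21 ± 0.07, with an unadjusted p-value of 0.00710 and an adjusted p-value of 0.9999.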

How the data were processed

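Per the labels and the study's methods, the authors used Trim Galore for trimming, HISAT2 2.1.0 for alignment to UMD3.1 and HTSeq 0.8.0 for read counts per gene. Libraries came from a strand-specific mRNA kit, and whether HTSeq used the strand is not given in the sources used here. The deposited raw counts of 24616 genes were used, and the deposited normalized table was not. Each cow was assigned to its group by its label.

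Genes with at least 20 reads summed over the cows were tested with edgeR 4.0.16 under R 4.3.3 (TMM factors, quasi-likelihood F test). The model held the 4 groups, and additive models gave HC versus LC and GLY versus CON. Calls needed an unadjusted p-value under 0.05 and a Benjamini-Hochberg adjusted p-value under 0.1. Correlations used log2 CPM (prior count 2) and 100000 permutations. The members, lists and tests were chosen with earlier results of these data known. All heme genes were named, and from the lists every called gene and the 2 smallest p-values per contrast other than the interaction; HMOX1, HMOX2 and UGT1A1 were named for their place in the route, and 1 further gene of the lists is not reported here. Alternatives comprised normalization by RLE or upper quartile, other filters on low counts, a robust fit, DESeq2 1.42.0, exact permutation tests and each cow left out. Total reads as a covariate was added after the data were seen. The main edgeR fits were checked on simulated counts. The DESeq2 fits, the fit with total reads as a covariate and the permutation tests were not. Of 100 genes simulated with a log2 fold change of 0.2, 15 were called for HC versus LC, 1 within CON and 1 within GLY. Of 100 genes at 0.5, the numbers were 87, 61 and 56, so small differences would often go uncalled. Tables and figures were made in Python 3.11.15 (numpy 2.4.6, pandas 2.3.3, matplotlib 3.10.9).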

Additional observations from a re-analysis of the deposited data

Results flagged for a closer look

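In 36 sets of values (9 genes in 4 groups), 2 had 1 cow far from the rest by Dixon's criterion, which chance gives in about 1 of 20. UROS in GLYHC cow 32 was at 137 normalized counts, while the other 7 cows of the group lay between 104 and 119. BLVRA in CONHC cow 134 was at 86.8 normalized counts, while the other cows of the group lay between 49.4 and 64.1. No interaction of glyphosate with the CFP was called for a heme gene.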

How the results depend on the processing

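No paired analysis was possible because each cow belonged to 1 group and cow numbers were not shared between groups. For HC versus LC, the 2 calls were FECH and PPOX under RLE and upper-quartile normalization, both other filters and the robust fit. The shares of all genes called were 1.51% (RLE), 1.52% (upper quartile), 0.698% (genes with at least 1 read), 1.39% (filterByExpr) and 1.32% (robust fit). DESeq2 on all cows called 3 genes with BLVRB added (and 2.73% of all genes). With total reads as a covariate, 1 gene and 0.578% of all genes were called, against 1.45% of all genes in the main fit. Between 0 and 3 genes were called when 1 cow was left out, and 0.863% of all genes were called without cow 912. DESeq2 on only the 2 compared groups called 1 gene in CONHC versus CONLC, and 0.504% of all genes. In the other contrasts the number of calls stayed at 0 under each alternative run.

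Of the 63 log2 fold changes of the heme genes, 24 changed sign under at least 1 alternative, all of them at most 0.130 in size and with an adjusted p-value of at least 0.861 in the edgeR fit on all cows. The cause was not tested. Outside the fits that left out 1 cow, 490 values kept their direction and side of the threshold, 3 gained a threshold (BLVRB in 2 settings and CPOX) and 2 lost one (PPOX and CPOX). For CPOX this was the unadjusted 0.05 of the exact test (p-values 0.0385 in CON and 0.0866 in GLY), and its adjusted value passed in no setting. In exact permutation tests the mean differences of opposite sign were -0.0106 for UROS in CONHC versus CONLC, 0.00107 for BLVRA in GLYHC versus GLYLC, -0.000804 for PPOX in GLYHC versus CONHC (-0.000142 with filterByExpr), and in GLYLC versus CONLC -0.0474 for ALAS1, -0.0319 for UROS and -0.00451 for FECH. With total reads as a covariate UROD was at 0.00800 for HC versus LC and BLVRA at 0.0244 for GLY versus CON.

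With each cow left out in turn, CONHC versus CONLC ran from -0.129 to 0.113 for UROS and -0.0650 to 0.0122 for UROD. GLYHC versus GLYLC ran from -0.208 to 0.0424 for ALAS1, -0.0389 to 0.157 for ALAD, -0.0562 to 0.0763 for UROD and -0.142 to 0.0983 for BLVRA. GLYHC versus CONHC ran from -0.0537 to 0.0235 for UROD and -0.0205 to 0.0249 for PPOX. GLYLC versus CONLC ran from -0.0948 to 0.155 for ALAS1, -0.181 to 0.0171 for ALAD, -0.115 to 0.146 for UROS, -0.113 to 0.0177 for UROD, -0.0141 to 0.0890 for CPOX, -0.0589 to 0.0791 for FECH and -0.0166 to 0.243 for BLVRA. The interaction ran from -0.0228 to 0.110 for UROD and -0.129 to 0.0109 for FECH. HC versus LC ran from -0.0190 to 0.0978 for ALAS1, -0.0820 to 0.00754 for ALAD and -0.0440 to 0.0168 for UROD. GLY versus CON ran from -0.0371 to 0.0601 for ALAD, -0.0537 to 0.00549 for UROD, -0.0531 to 0.00978 for FECH and -0.0828 to 0.0406 for BLVRA. Between cows, the spread in groups of 7 or 8 limits what the glyphosate contrasts can show, and BLVRA and UROS are also limited by their low read counts.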
